A study of Homo sapiens with 6 samples.

Results

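The genes described here are 40 genes of DNA double-strand break repair, of the Fanconi pathway and of the checkpoint that both switch on. They were taken by symbol from the table of counts, in which all 40 were found among 37887 rows. The rule uses no measured value, but the list was drawn up with earlier results of these data known. RNA-seq was performed on BT-549 cells, an established triple-negative breast cancer (TNBC) line of mesenchymal type, in 2 groups of 3 libraries. By the series design, the cells of both groups carried a stably expressed, tetracycline-inducible vector for an shRNA against PBRM1, a subunit of the PBAF chromatin remodeling complex. The control group (control_shRNA) received the vehicle, 0.1% DMSO, and the silenced group (shPBRM1) received doxycycline (DOX) at 500 ng/ml, which switches the shRNA on. The sample titles call the controls control shRNA cells, whereas the series design describes vehicle-treated cells with the PBRM1 vector. For its chromatin accessibility assays on PBRM1, the paper names control shRNA cells and PBRM1 shRNA cells, as the titles do. If the titles hold, the groups are separately transduced cells, and a difference between such cells cannot be told apart from silencing either. With 1 vector against PBRM1 in 1 cell line, an effect of an unintended target of the shRNA and of the loss of PBRM1 cannot be told apart. By the series design DOX was given to the silenced cells only, so an effect of DOX cannot be told apart in these libraries either.

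Double-strand breaks are rejoined by 2 main routes. In non-homologous end joining, the Ku heterodimer binds the broken ends and recruits the kinase DNA-PKcs and a ligase. In homologous recombination, nucleases resect the ends to single strands, and with the help of BRCA2 the strand invades the sister chromatid as a template, which ties this route to the S and G2 phases of the cell cycle. The Fanconi proteins unhook crosslinks between DNA strands, such as those made by platinum drugs, and hand the resulting breaks to homologous recombination. Inherited loss of BRCA1, BRCA2 or PALB2 predisposes to breast cancer, and tumors without homologous recombination are sensitive to platinum agents and PARP inhibitors.

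Depth was between 36429395 and 65096297 counts per library, and 3 counts, taken as the floor of detection, corresponded to 0.0471 to 0.0804 CPM, that is, counts scaled to the size of the library, here after TMM normalization. Each member had at least 147 counts in every library, and all 40 passed the filter on low counts that left 15450 genes for testing. PBRM1 was at 157, 157 and 161 CPM in control_shRNA libraries and at 43.3, 40.9 and 41.7 CPM in shPBRM1 libraries, a log2 fold change of -1.91 (standard error 0.027, edgeR adjusted p = 9.98e-23). The mesenchymal markers VIM, CDH2, ZEB1 and SPARC were above 100 CPM in each library, ESR1 had at most 2 counts and PGR at most 12. EPCAM had at most 8 counts. ERBB2 was not absent, at 49.6 to 52.4 CPM, nor was CDH1, with 186 to 271 counts in controls and 58 to 110 in shPBRM1 libraries. CDH1 was lower after silencing (log2 fold change -1.73, edgeR adjusted p = 9.58e-10). The mesenchymal markers differed in direction, with log2 fold changes of 0.31 for VIM, 0.54 for CDH2, -0.55 for ZEB1 and -0.37 for SPARC. Of the markers of other cells, CD3E had no count, PECAM1 had at most 18 counts, PTPRC had 26 to 44 counts in controls and 4 to 12 in shPBRM1 libraries, and CD14 had 9 to 23 and 29 to 44. All were under 1 CPM, and their part in the results below was not tested.

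The start regions of the genes are shown first, since several are shared with a gene on the other strand and the letters in them are compared with the values below. RefSeq windows from 250 bases before to 50 bases after the start (GRCh38.p14) were given for 34 of the 40 genes. The letters CCAAT, on either strand, are the core of the site of NF-Y, a factor at many cell cycle promoters. They were in 15 of the 34 windows (44.1%) and in 35.7% of the 27305 windows of all genes. Among the windows of genes that were higher in shPBRM1 cells, by the test described below, 9 of 18 held CCAAT, against 2 of 7 for lower genes and 4 of 9 for genes that did not pass the test. The letters of E2F sites were rare: TTTGGCGC was in the window of XRCC6 alone (0.659% of all windows) and TTTCGCGC in those of EXO1 and FANCC (0.538% of all windows). The cell cycle homology letters TTTGAA were in 3 windows (15.5% of all windows), TTCGAA in none (1.46%), and the letters of the interferon-stimulated response element in none (3.66%). These are matches of letters, not sites shown to be bound.

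The 250 bases upstream of 4 genes that were higher in shPBRM1 cells are given 5′ to 3′ on the strand of the gene, with CCAAT or its reverse complement ATTGG in capitals, and for BRIP1 also TTCAAA, the reverse complement of TTTGAA. BRIP1 has 3 copies of CCAAT, all on the other strand, FANCM has 1 on each strand, RAD54L has 1 copy within these bases, and FANCB has none. The positions are chr17:61863529-61863778 (minus strand) for BRIP1, chr14:45135680-45135929 (plus strand) for FANCM, chr1:46247438-46247687 (plus strand) for RAD54L and chrX:14873070-14873319 (minus strand) for FANCB. None of these bases lies in an annotated exon of GENCODE v29. The same holds for FANCE and RAD51C, which were also higher but hold no CCAAT in these 250 bases and are not shown.
BRIP1: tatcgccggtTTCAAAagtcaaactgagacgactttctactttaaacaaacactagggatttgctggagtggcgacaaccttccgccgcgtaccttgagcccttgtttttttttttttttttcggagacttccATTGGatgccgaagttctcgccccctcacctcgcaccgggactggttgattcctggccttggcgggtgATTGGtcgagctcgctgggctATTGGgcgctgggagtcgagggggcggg
FANCM: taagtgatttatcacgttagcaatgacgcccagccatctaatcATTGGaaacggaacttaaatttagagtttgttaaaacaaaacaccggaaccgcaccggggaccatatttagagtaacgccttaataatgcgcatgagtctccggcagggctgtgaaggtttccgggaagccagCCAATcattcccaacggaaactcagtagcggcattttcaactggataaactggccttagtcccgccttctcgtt
RAD54L: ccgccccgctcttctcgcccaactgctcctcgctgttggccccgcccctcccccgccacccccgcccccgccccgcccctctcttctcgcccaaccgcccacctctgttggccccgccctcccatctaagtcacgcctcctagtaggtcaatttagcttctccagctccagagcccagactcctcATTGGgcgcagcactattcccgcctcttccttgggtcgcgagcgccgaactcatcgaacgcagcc
FANCB: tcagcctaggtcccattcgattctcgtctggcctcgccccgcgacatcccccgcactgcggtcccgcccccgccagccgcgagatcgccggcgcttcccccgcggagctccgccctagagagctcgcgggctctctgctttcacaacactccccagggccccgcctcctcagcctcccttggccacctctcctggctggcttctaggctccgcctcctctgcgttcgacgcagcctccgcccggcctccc
The 81 bases between the starts of PALB2 and DCTN5 (chr16:23641311-23641391, shown on the minus strand, that of PALB2) lie between 2 genes that moved in opposite directions, and hold 1 copy of ATTGG, in capitals.
PALB2 to DCTN5: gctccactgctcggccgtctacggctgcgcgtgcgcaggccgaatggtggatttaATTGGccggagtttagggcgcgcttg

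To determine how silencing of PBRM1 was associated with the expression of repair genes, shPBRM1 libraries were compared with control_shRNA libraries in edgeR by the quasi-likelihood test, and p-values were adjusted by Benjamini-Hochberg across the whole table. At an adjusted p under 0.05, 23 of the 40 genes were higher in shPBRM1 cells and 8 were lower, and 9 did not pass the test. Over all genes tested, 31.5% were higher and 33.2% were lower, and 64.7% passed in either direction. Among the 10329 genes with a mean level inside the range of the members, 40.9% were higher and 34.4% were lower. The members' median log2 fold change was 0.21, against -0.01 over all genes and 0.03 over genes in that range. The changes were small. Only DNA2 passed an adjusted p under 0.05 with a fold change over 2, in a comparison where 2.87% of genes rose and 9.68% fell by that much, and no member fell by more than 2-fold. The log2 fold changes ran from -0.42 for RAD50 to 1.01 for DNA2. All 3 shPBRM1 libraries were above all 3 control libraries for 24 members and below them for 9, where the shares over all genes tested were 33.3% and 35%.

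**Figure D1:**
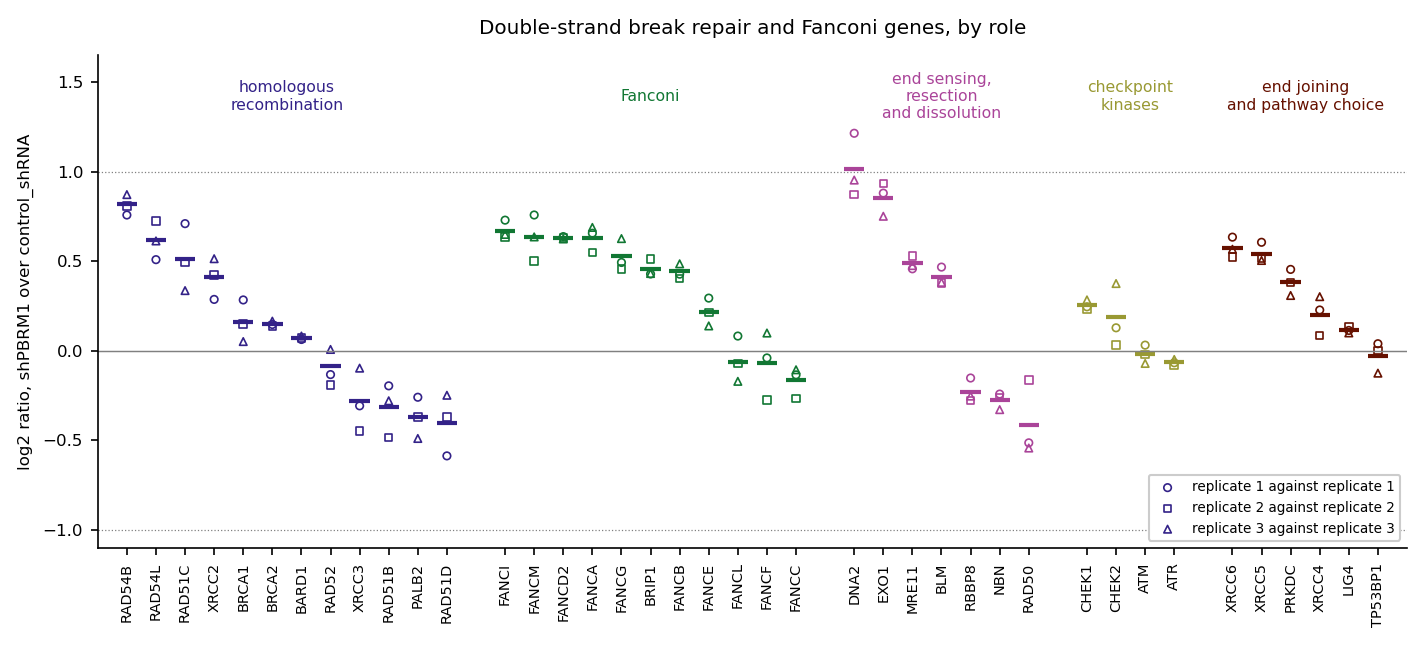
The log2 ratio of shPBRM1 over control_shRNA (vertical axis) for the 40 genes, grouped by role. Open symbols are the ratios of libraries with the same replicate number (circle, 1; square, 2; triangle, 3), thick bars are the fitted log2 fold changes and dotted lines mark a fold change of 2. Fanconi genes sit mostly above 0, with FANCL, FANCF and FANCC at or below it, and the homologous recombination and end resection genes spread to both sides.

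The strongest increases were in the nucleases that resect broken ends over long stretches. Of the 7 genes of end sensing, resection and dissolution, 4 were higher and 3 were lower, with a median log2 fold change of 0.41. Among all genes in the members' range of levels, 40.9% were higher and 34.4% were lower. DNA2 (chr10:68414064-68472121, GRCh38), a nuclease and helicase, was at 13.7, 15.4 and 15.0 CPM in control_shRNA libraries and at 31.8, 28.3 and 29 CPM in shPBRM1 libraries. Its level rose 2.02-fold, a log2 fold change of 1.01 (standard error 0.073, edgeR adjusted p = 4.87e-12). Without control_shRNA replicate 1 or without shPBRM1 replicate 1, its log2 fold change was 0.97, under the 2-fold threshold. EXO1 (chr1:241847967-241895148), the other nuclease of long-range resection, was at 33.2, 32.5 and 35.1 CPM in controls and at 61.2, 62.1 and 59.2 CPM after silencing. The EXO1 log2 fold change was 0.85 (standard error 0.040, edgeR adjusted p = 1.04e-13). For both nucleases the libraries of the 2 groups were far apart, with all silenced libraries above all controls, as for 33.3% of all genes tested. BLM, the helicase that unwinds ends for DNA2 and dissolves joined recombination intermediates, rose from 11.4 ± 0.119 to 15.2 ± 0.607 CPM (SD, n = 3).

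By contrast, the genes that act at the first step of resection did not move together. MRE11, RAD50 and NBN encode the MRN complex, which senses a broken end, activates ATM and makes the first cut, and RBBP8 (CtIP) stimulates that cut. MRE11 was at 40, 38.7 and 38.6 CPM in controls and at 55.0, 55.9 and 53.7 CPM in shPBRM1 libraries (log2 fold change 0.49, standard error 0.023, edgeR adjusted p = 9.36e-10). NBN went the other way, with 160.3, 158 and 168 CPM in controls and 136, 132 and 134 CPM in shPBRM1 libraries (log2 fold change -0.28, standard error 0.030, edgeR adjusted p = 4.15e-07). RAD50 was at 6.7, 6.5 and 7.08 CPM in controls and at 4.68, 5.81 and 4.85 CPM after silencing (log2 fold change -0.42, standard error 0.10, edgeR adjusted p = 0.00159). All libraries of the 2 groups were separate for the 3 MRN genes. Over all genes tested, the shPBRM1 libraries were all above the controls for 33.3% and all below them for 35%. RBBP8 was at 69.4, 75.2 and 80.6 CPM in controls and at 62.5, 62.1 and 67.7 CPM in shPBRM1 libraries, also with no overlap (log2 fold change -0.23, standard error 0.074, edgeR adjusted p = 0.00017). The RAD50 values are uncertain, because 79.7% of its exonic bases are shared in GENCODE v29 with other genes, nearly all with AC116366.3 on the same strand. In control cells RAD50 also had the lowest level of the members per length, at 0.692 CPM per kb of exon, against 5.09 for MRE11 and 26.3 for NBN. The part of the shared bases in these values was not tested.

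**Figure D2:**
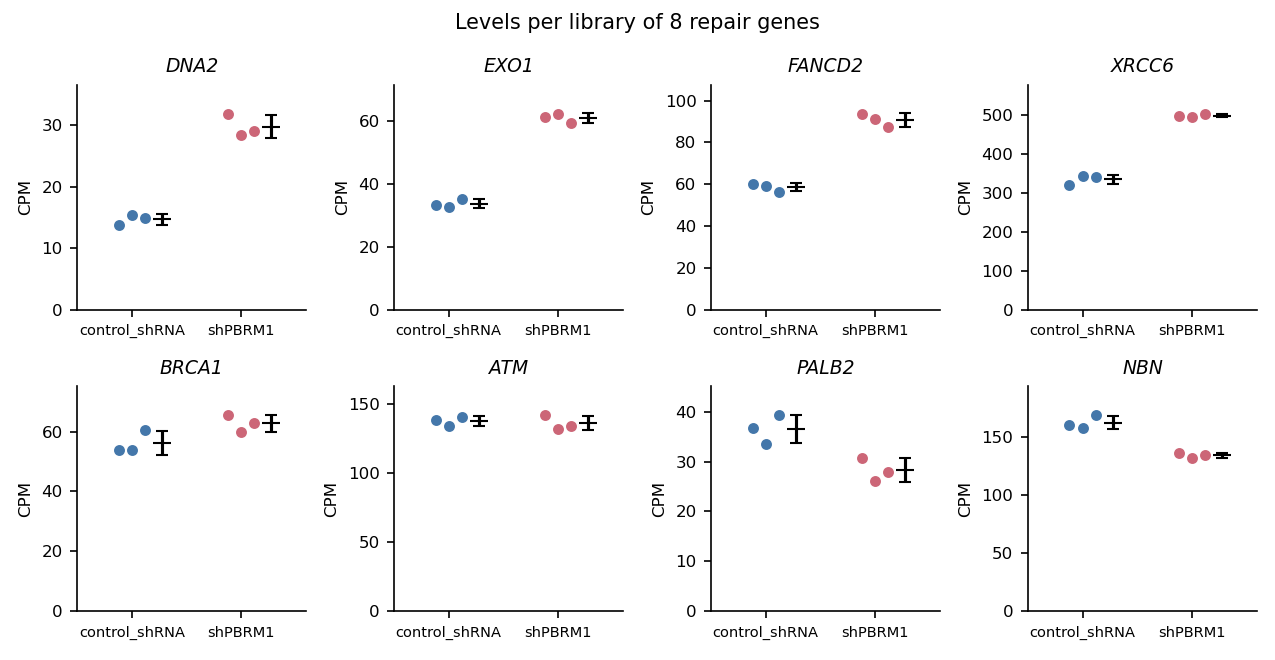
CPM per library (vertical axes, from 0) for 8 members in control_shRNA (blue) and shPBRM1 (red) libraries; black bars are the mean and SD of 3 libraries. DNA2, EXO1, FANCD2 and XRCC6 are higher and PALB2 and NBN lower in all shPBRM1 libraries, while the groups overlap for BRCA1 and ATM.

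Most of the Fanconi genes rose. Of 11 genes, 8 were higher, 1 was lower and 2 did not pass the test, with a median log2 fold change of 0.46. In the members' range of levels, 40.9% of all genes were higher and 34.4% were lower. FANCI and FANCD2 encode the heterodimer that the pathway ubiquitinates and clamps onto DNA. FANCI was at 59.3, 62.0 and 62.1 CPM in controls and at 98.3, 96.3 and 97.5 CPM in shPBRM1 libraries (log2 fold change 0.67, standard error 0.024, edgeR adjusted p = 6.55e-14). FANCD2 was at 60.2, 59.0 and 56.5 CPM in controls and at 93.7, 91.2 and 87.1 CPM after silencing (log2 fold change 0.63, standard error 0.041, edgeR adjusted p = 1.08e-12). In both partners of the heterodimer all silenced libraries were above all controls, as for 33.3% of all genes tested. FANCM, the translocase that anchors the core complex at stalled forks, was at 16.2, 17.2 and 18 CPM in controls and at 27.5, 24.4 and 28 CPM in shPBRM1 libraries (log2 fold change 0.64, standard error 0.076, edgeR adjusted p = 1.72e-08). BRIP1, a helicase that binds BRCA1, rose from 16 ± 0.777 to 21.9 ± 0.367 CPM (SD, n = 3, log2 fold change 0.46).

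Within the Fanconi core complex, the ubiquitin ligase that modifies FANCI and FANCD2, the subunits split. FANCA, FANCG and FANCB were higher, with log2 fold changes of 0.63, 0.53 and 0.45. FANCA rose from 21.5 ± 1.43 to 33.3 ± 0.662 CPM, FANCG from 29.3 ± 1.92 to 42.2 ± 1.22 CPM and FANCB from 12.5 ± 0.365 to 17.0 ± 0.652 CPM (SD, n = 3). FANCE, which contacts FANCD2, changed less, at 0.22 (edgeR adjusted p = 0.0166), and did not pass without shPBRM1 replicate 1 (adjusted p = 0.0719) or on library size only (0.0656). FANCL, the catalytic subunit, was at 5.97, 6.85 and 6.80 CPM in controls and at 6.33, 6.53 and 6.04 CPM after silencing, and the groups overlapped (log2 fold change -0.06, standard error 0.071, edgeR adjusted p = 0.598). FANCF, an adaptor of the complex, also overlapped, with 7.45, 8.31 and 7.10 CPM in controls and 7.25, 6.86 and 7.61 CPM after silencing (log2 fold change -0.07, standard error 0.080, edgeR adjusted p = 0.53). FANCC was the only lower Fanconi gene, at 21.4, 20.9 and 21.0 CPM in controls and 19.5, 17.3 and 19.5 CPM in shPBRM1 libraries (log2 fold change -0.16, standard error 0.058, edgeR adjusted p = 0.0336). The FANCC call was not stable: the adjusted p was 0.0815 with DESeq2, 0.0509 without the filter, 0.0849, 0.0638 and 0.0708 without control_shRNA replicate 1, 2 or 3, and 0.171 without shPBRM1 replicate 2. Exonic bases of FANCA (23.6%, with ZNF276), FANCL (19.7%, mostly with VRK2) and FANCF (11.3%, with GAS2) overlap genes on the opposite strand, so that these 3 values are uncertain where the strand was not used in counting.

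Of the 12 homologous recombination genes, 6 were higher, 4 were lower and 2 did not pass the test, with a median log2 fold change of 0.11. These shares are near those of all genes in the members' range of levels, 40.9% and 34.4%. The DNA translocases RAD54L and RAD54B, which act when the broken strand invades its template, rose most. RAD54B was at 8.04, 7.65 and 7.89 CPM in controls and at 13.6, 13.4 and 14.5 CPM in shPBRM1 libraries (log2 fold change 0.82, standard error 0.039, edgeR adjusted p = 3.4e-09). RAD54L was at 20.7, 21.4 and 20.5 CPM in controls and at 29.5, 35.4 and 31.4 CPM after silencing (log2 fold change 0.62, standard error 0.079, edgeR adjusted p = 1.66e-08). Both were higher in each silenced library than in any control, as were 33.3% of all genes tested. However, 59.1% of the exonic bases of RAD54B are shared with FSBP on the same strand. For RAD54L, 25.1% are shared with LRRC41 on the opposite strand. BRCA1, which with BARD1 forms a ubiquitin ligase that favors resection, passed the test with a small change (log2 fold change 0.16, standard error 0.069, edgeR adjusted p = 0.00503), although its groups overlapped, at 53.7 to 60.7 CPM in controls and 59.8 to 65.5 CPM in shPBRM1 libraries. BARD1 was at 34.0 ± 0.261 and 35.7 ± 0.456 CPM (SD, n = 3, log2 fold change 0.07, edgeR adjusted p = 0.209), and BRCA2 rose from 64.4 ± 1.79 to 71.4 ± 2.58 CPM (log2 fold change 0.15).

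PALB2, which links BRCA1 to BRCA2, was lower. It was at 36.8, 33.6 and 39.3 CPM in controls and at 30.8, 26 and 28 CPM in shPBRM1 libraries (log2 fold change -0.37, standard error 0.096, edgeR adjusted p = 3.12e-05), with no overlap. The 5 genes of the complexes BCDX2 (RAD51B, RAD51C, RAD51D and XRCC2) and CX3 (RAD51C and XRCC3), which act in recombination, split into 2 that rose and 3 that fell. RAD51C was at 7.82, 8.5 and 8.96 CPM in controls and at 12.8, 12 and 11.3 CPM in shPBRM1 libraries (log2 fold change 0.51, standard error 0.077, edgeR adjusted p = 1.25e-05), and XRCC2 rose from 12.5 ± 1.45 to 16.5 ± 0.620 CPM (SD, n = 3, log2 fold change 0.41). RAD51D was at 21.3, 18.6 and 17.7 CPM in controls and at 14.2, 14.4 and 14.9 CPM after silencing (log2 fold change -0.40, standard error 0.083, edgeR adjusted p = 5.05e-05). RAD51B was at 7.10, 7.78 and 8.27 CPM in controls and at 6.20, 5.55 and 6.81 CPM after silencing (log2 fold change -0.31, standard error 0.11, edgeR adjusted p = 0.00883). Its call was lost without control_shRNA replicate 3 (adjusted p = 0.055). XRCC3 fell from 12 ± 1.1 to 9.80 ± 0.527 CPM (SD, n = 3, log2 fold change -0.28), and 76.7% of its exonic bases overlap KLC1 on the opposite strand. RAD52, which anneals complementary single strands, was the least abundant member in CPM, at 4.69 ± 0.336 and 4.38 ± 0.614 CPM, and its groups overlapped (log2 fold change -0.09, edgeR adjusted p = 0.551).

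Since members of 1 complex moved apart, the ratio of their counts was taken within each library, where library size cancels. The 11 pairs were chosen after their values had been seen, and the ratios are given as a description. MRE11 over RAD50 was 5.97, 5.96 and 5.45 in control_shRNA libraries and 11.7, 9.62 and 11.1 in shPBRM1 libraries, a mean 1.87 times as high. MRE11 over NBN was 0.249, 0.245 and 0.229 in controls and 0.405, 0.424 and 0.401 after silencing, 1.70 times as high. RAD51C over RAD51D was 0.367, 0.458 and 0.507 in controls and 0.904, 0.835 and 0.761 after silencing, 1.88 times as high. The ratios of RAD51C to RAD51B, XRCC2 to RAD51D and RAD51C to XRCC3 were 1.8, 1.76 and 1.73 times as high, and that of BRCA2 to PALB2 was 1.44 times as high. In these 7 pairs the groups did not overlap. This was fixed in advance, since the first gene of each pair was above and the second below all controls in every shPBRM1 library. The ratios with RAD50 and XRCC3 are uncertain, because 79.7% and 76.7% of the exonic bases of these genes are shared with other genes. For the other 4 pairs they did: FANCI over FANCD2 had means of 1.04 and 1.07, XRCC6 over XRCC5 of 1.16 and 1.19, BRCA1 over BARD1 of 1.653 and 1.757, and XRCC4 over LIG4 of 0.331 and 0.352, in control_shRNA and shPBRM1 libraries.

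**Figure D3:**
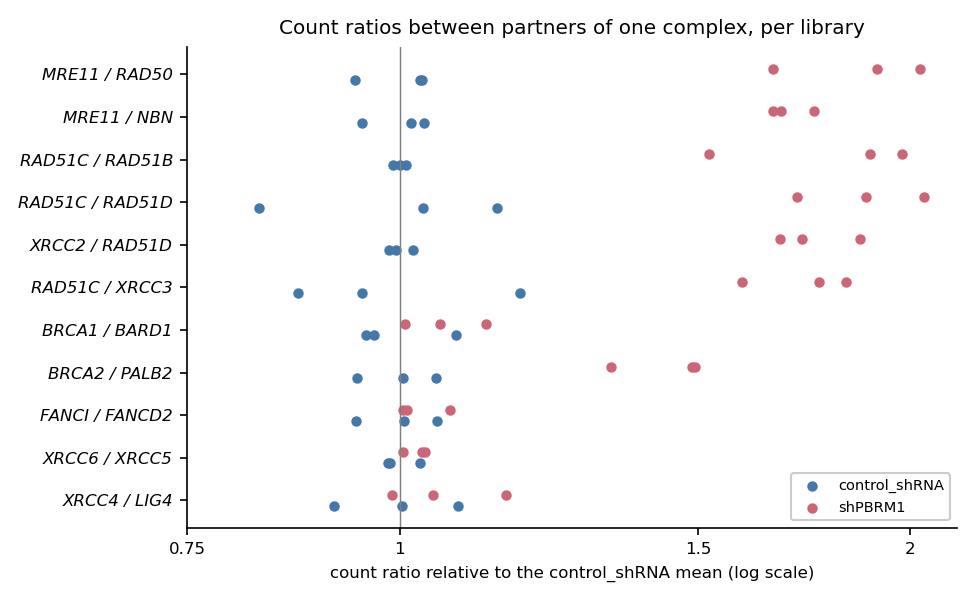
Count ratio of 2 partners of 1 complex in each library, divided by the mean of the control_shRNA libraries (horizontal log axis), for 11 pairs; blue points are control_shRNA and red points shPBRM1 libraries. The red points of the MRN, BCDX2, CX3 and BRCA2 to PALB2 pairs lie to the right of the blue ones, and those of the BRCA1, FANCI, XRCC6 and XRCC4 pairs overlap them. RAD50 and XRCC3 share most of their exonic bases with other genes, so their ratios are uncertain.

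The 6 genes of end joining and pathway choice included the most abundant members. In control cells PRKDC was at 116 CPM per kb of exon, XRCC6 at 102 and XRCC5 at 53.0, and the other 37 members were at 26.3 or less. These 3 genes were higher after silencing and the other 3 did not pass the test, where 40.9% of all genes in the members' range were higher. PRKDC (chr8:47773108-47960183), which encodes the kinase DNA-PKcs, was at 1793, 1739.6 and 1844 CPM in controls and at 2457, 2266 and 2285 CPM in shPBRM1 libraries (log2 fold change 0.38, standard error 0.044, edgeR adjusted p = 1.26e-09). XRCC6 (chr22:41621119-41664048), a Ku subunit, was at 322, 344 and 340.2 CPM in controls and at 499, 495 and 504 CPM after silencing (log2 fold change 0.58, standard error 0.031, edgeR adjusted p = 1.63e-11). XRCC5 (chr2:216107464-216206303), the other Ku subunit, was at 282, 289 and 297 CPM in controls and at 429, 413 and 422 CPM after silencing (log2 fold change 0.54, standard error 0.028, edgeR adjusted p = 3.12e-11). In all 3 genes every silenced library was above every control, as for 33.3% of all genes tested.

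LIG4 and XRCC4, the ligase and its scaffold, were near the threshold. LIG4 was at 31.6, 32.5 and 33.4 CPM in controls and at 34.2, 35.7 and 35.8 CPM in shPBRM1 libraries, with no overlap (log2 fold change 0.12, standard error 0.031, edgeR adjusted p = 0.0555). XRCC4 was at 9.57, 11.6 and 11.1 CPM in controls and at 11.2, 12.3 and 13.7 CPM after silencing, with overlap (log2 fold change 0.20, standard error 0.12, edgeR adjusted p = 0.0524). With the replicate number as a block both passed, at adjusted p = 0.0494 for LIG4 and 0.0136 for XRCC4. They also passed without shPBRM1 replicate 1 (0.043 and 0.00994), LIG4 without control_shRNA replicate 3 (0.0465) and XRCC4 without control_shRNA replicate 2 (0.0325). With RLE factors both passed (0.0459 for LIG4 and 0.0456 for XRCC4), and XRCC4 passed without the filter on low counts (0.0438). TP53BP1, which shields ends from resection and so favors end joining, was at 109, 106 and 112 CPM in controls and at 112, 106 and 103 CPM in shPBRM1 libraries, with overlap (log2 fold change -0.03, standard error 0.043, edgeR adjusted p = 0.541), and 28.7% of its exonic bases overlap TUBGCP4 on the opposite strand.

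Of the 4 checkpoint kinases, 2 were higher, the effector kinases, and 2 did not pass the test, the apical kinases. These are few genes, and in the members' range of levels 40.9% of all genes were higher and 34.4% were lower. CHEK1, the target of ATR that holds back mitosis, was at 59.2, 57.0 and 57.5 CPM in controls and at 70.3, 67.0 and 70.1 CPM in shPBRM1 libraries (log2 fold change 0.26, standard error 0.028, edgeR adjusted p = 3.05e-06). CHEK2, the target of ATM, was at 27.8, 27.6 and 25.7 CPM in controls and at 30.4, 28.2 and 33.3 CPM after silencing (log2 fold change 0.19, standard error 0.079, edgeR adjusted p = 0.0122). The CHEK2 call was lost without control_shRNA replicate 3 (adjusted p = 0.0738), without shPBRM1 replicate 3 (0.117) and on library size only (0.0616). ATM, the kinase switched on at broken ends, was at 139, 134 and 141 CPM in controls and at 142.04, 132 and 134 CPM after silencing, with overlapping groups (log2 fold change -0.02, standard error 0.037, edgeR adjusted p = 0.681). ATR, which answers to single-stranded DNA, was at 92.8, 93.9 and 94.3 CPM in controls and at 88.6, 88.8 and 91.2 CPM in shPBRM1 libraries (log2 fold change -0.06, standard error 0.015, edgeR adjusted p = 0.0877). The ATR groups were separate but the difference was small, and ATR passed as lower on library size only (adjusted p = 0.00511) and with the stricter filter (0.0456). A processed pseudogene on the opposite strand overlaps 16.4% of its exonic bases.

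In all, 9 members share over 10% of their exonic bases with another gene: RAD50, XRCC3, RAD54B, TP53BP1, RAD54L, FANCA, FANCL, ATR and FANCF. The library kit keeps the strand, but the sources used here do not say whether the counting used it. Among the 31 other members, 20 were higher, 6 were lower and 5 did not pass, with a median log2 fold change of 0.26. Over all genes tested the shares were 31.5% higher and 33.2% lower, and among genes in the members' range of levels 40.9% and 34.4%.

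The other genes of the same pathways were read from a list of 76 partners, of which 75 were tested and SLX1A was not. Of the 75, 38 were higher, 15 were lower and 22 did not pass, with a median log2 fold change of 0.11, and none changed over 2-fold. By comparison, 31.5% of all genes tested were higher and 33.2% were lower. The largest increases were in CENPX and CENPS, histone-fold proteins that join FANCM on DNA, and in RAD51AP1, which promotes strand invasion. CENPX was at 8.90, 9.67 and 9.58 CPM in controls and at 15.8, 17.8 and 18.8 CPM in shPBRM1 libraries (log2 fold change 0.89, standard error 0.084, edgeR adjusted p = 1.14e-09). CENPS had log2 fold change 0.85 at a low level, 1.37 ± 0.278 and 2.46 ± 0.484 CPM (SD, n = 3, edgeR adjusted p = 0.000616). RAD51AP1 rose from 16.4 ± 0.997 to 28.3 ± 1.21 CPM (log2 fold change 0.79, edgeR adjusted p = 2.27e-10). The largest decreases were in SFR1, an accessory factor of recombination, in FAN1, a nuclease of crosslink repair, and in SHLD1, a subunit of shieldin, which protects ends downstream of TP53BP1. SFR1 was at 7.88, 7.65 and 7.99 CPM in controls and at 4.41, 4.37 and 4.38 CPM in shPBRM1 libraries (log2 fold change -0.84, standard error 0.019, edgeR adjusted p = 7.74e-08). FAN1 fell from 7.48 ± 0.324 to 4.75 ± 0.431 CPM (log2 fold change -0.66, edgeR adjusted p = 6.5e-06), and SHLD1 from 4.24 ± 0.248 to 2.75 ± 0.387 CPM (log2 fold change -0.60, edgeR adjusted p = 0.000376).

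Genes of the cell cycle were mostly higher as well. Of 30 genes of DNA replication and mitosis, 25 were higher in shPBRM1 cells, 1 was lower and 4 did not pass, with a median log2 fold change of 0.73, and 5 rose over 2-fold. For all genes tested, 31.5% were higher, 33.2% were lower and 2.87% rose over 2-fold. MYBL2, a transcription factor of cycling cells, had the highest log2 fold change, 1.39 (standard error 0.030, edgeR adjusted p = 2.24e-19), and MCM6, a subunit of the replicative helicase, the lowest, -0.22 (standard error 0.041, edgeR adjusted p = 1.24e-05). The 4 that did not pass were MCM2, MCM3, MCM7 and CCNE1. Like MCM6, these are genes of replication or of entry into S phase. Most genes of that kind in the list were higher, though, such as PCNA (0.53), MCM10 (0.73), CDC45 (0.62), TYMS (0.75) and CCNE2 (0.61). The mitosis genes of the list were all higher. The mean log2 CPM over this list was 5.94 to 5.98 in control libraries and 6.57 to 6.59 in shPBRM1 libraries, and over the 40 repair genes 4.90 to 4.92 and 5.11 to 5.16. By role, the difference of the group means was 0.36 for Fanconi genes, 0.30 for end joining, 0.27 for end sensing and resection, 0.10 for homologous recombination and 0.09 for checkpoint kinases. In bulk RNA, a larger share of cells in a phase of the cycle and more RNA per cell cannot be told apart, and the part of the cell cycle genes' shift in these results was not tested.

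**Figure D4:**
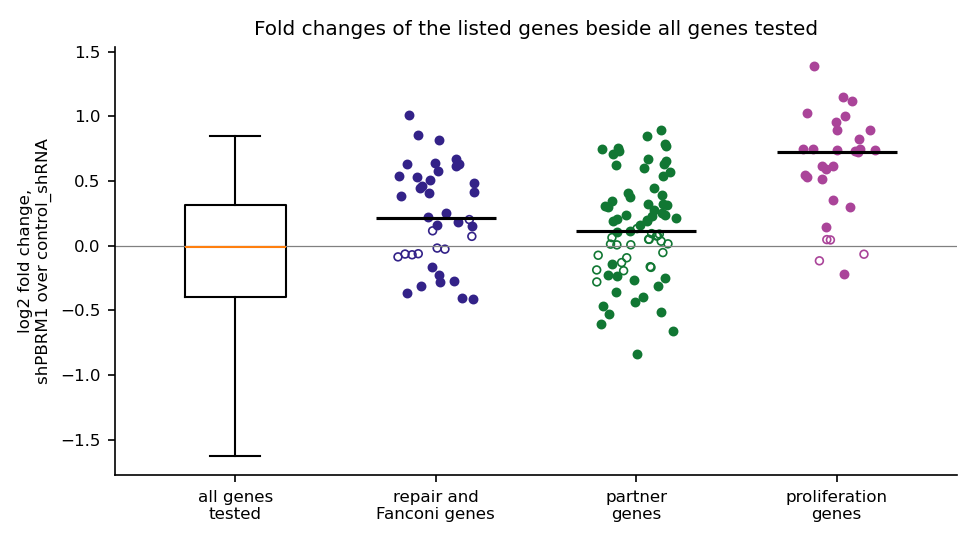
Log2 fold change of shPBRM1 over control_shRNA (vertical axis) for all 15450 genes tested (box, quartiles and median; whiskers, the 5th and 95th percentiles) and for each gene of 3 lists; filled points passed an adjusted p under 0.05, open points did not, and black lines are medians. The medians are -0.01 for all genes, 0.21 for the repair and Fanconi genes, 0.11 for their partners and 0.73 for the proliferation genes.

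Some repair genes start near a gene on the opposite strand. The share of all genes with such a neighbor was not computed. In GENCODE v29, 16 of the 40 had a head-to-head neighbor whose start lay within 1000 bp and outside the gene, and 11 of them had such a neighbor that could be tested. The start of a gene is here its outermost annotated start, and which starts the cells used was not tested. Of these 11 neighbors 5 were higher, 3 were lower and 3 did not pass. Over all genes tested, 31.5% were higher, 33.2% were lower and 64.7% passed in either direction. Both genes of a pair passed in 6 pairs, in the same direction in 2 and in opposite directions in 4. These counts are a description, and how often unrelated genes would give them was not tested. MCM4, a helicase subunit whose start lies 2 bp from that of PRKDC, rose with it (log2 fold change 0.30, standard error 0.018, edgeR adjusted p = 2.84e-07). FKBP3, 621 bp from FANCM, was at 29.6, 30.1 and 30.7 CPM in controls and at 43.9, 43.3 and 48.0 CPM in shPBRM1 libraries (log2 fold change 0.58, standard error 0.049, edgeR adjusted p = 1.11e-09), beside 0.64 for FANCM. MOSPD2, 372 bp from FANCB, went against it, with 43.6, 42.4 and 47.1 CPM in controls and 32.2, 28.9 and 32.9 CPM after silencing (log2 fold change -0.50, standard error 0.074, edgeR adjusted p = 5.42e-08). DCTN5, on the other side of the 81 bases printed above, was at 58.1, 59.9 and 59.6 CPM in controls and at 70.0, 67.2 and 68.3 CPM after silencing (log2 fold change 0.21, standard error 0.022, edgeR adjusted p = 3.16e-05), while PALB2 fell.

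NBR1, 236 bp from the farthest annotated start of BRCA1, was lower, at -0.62 (log2, standard error 0.034, edgeR adjusted p = 5.14e-13), beside 0.16 for BRCA1. Whether the cells used that start of BRCA1 was not tested, so this pair may not share a start region in use. ZFYVE21, 226 bp from XRCC3, had 0.49 (standard error 0.087, edgeR adjusted p = 4.14e-05), beside -0.28 for XRCC3. DESI1, 23 bp from XRCC6, did not pass the test (log2 fold change -0.04, standard error 0.063, edgeR adjusted p = 0.532). MAP1A, beside TP53BP1, was lower (log2 fold change -0.58, edgeR adjusted p = 1.14e-07), ABHD13, 11 bp from LIG4, was higher (0.23, adjusted p = 0.00361), and ERC1, beside RAD52, and CRTC3-AS1, beside BLM, did not pass (0.02 and -0.76, adjusted p = 0.72 and 0.131). CRTC3-AS1 had 9 to 18 counts per library. ZAR1L, TEX14 and FNDC8, next to BRCA2, RAD51C and RAD51D, did not pass the filter on low counts.

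**Figure D5:**
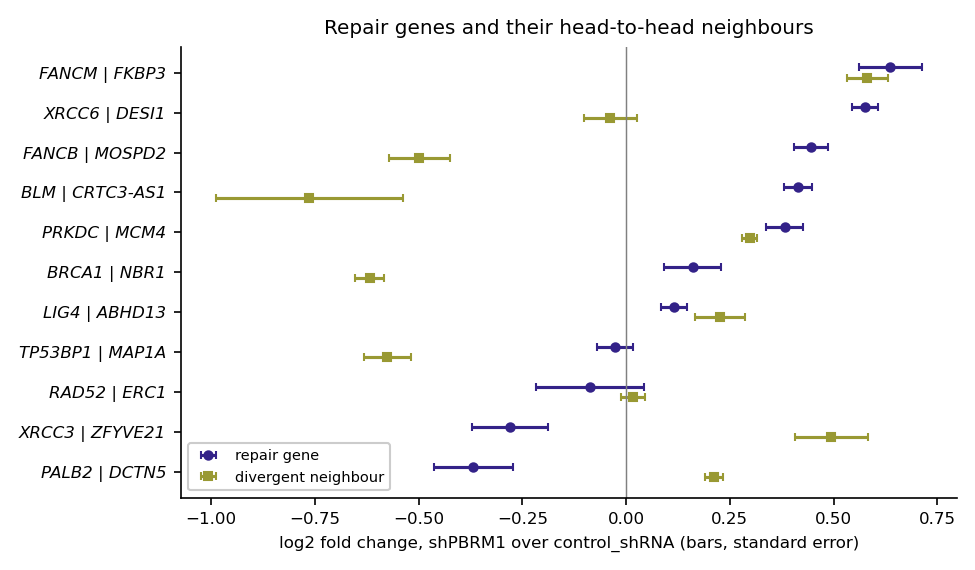
Log2 fold change of shPBRM1 over control_shRNA (horizontal axis) for 11 repair genes (circles) and the head-to-head neighbor of each (squares), with standard errors from 3 libraries per group. Of the 6 pairs in which both genes passed the test, FANCM with FKBP3 and PRKDC with MCM4 lie on the same side of 0, and FANCB, BRCA1, XRCC3 and PALB2 lie opposite to their neighbors. The BRCA1 pair is placed by the farthest annotated start of BRCA1.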

How the data were processed

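Poly(A) RNA of BT-549 cells was sequenced with a stranded kit. Per the submitters' processing notes, CASAVA 1.8.2, STAR 2.7.9a, featureCounts and DESeq2 1.24.0 were used with GRCh38.p7. The authors deposited raw read counts per gene symbol, not normalized, in 37887 rows (14 of them are named by dates). Groups follow the sample titles. The names of the control columns hold no group word and were matched to the control titles by cell line and number.

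Counts were normalized by TMM and tested with edgeR 4.0.16 (R 4.3.3): filterByExpr, quasi-likelihood F-test, Benjamini-Hochberg adjustment, with checks on simulated data. Standard errors were computed from log2 CPM (prior count 2) of the libraries. Libraries of a group differed beyond counting noise (chi-square per degree of freedom 4.737 to 22.95), which does not show that they came from independent experiments, so p-values measure the spread between these libraries only, which may be technical. Libraries with the same number in the titles deviated together (correlations 0.734, 0.593 and 0.419 over 5622 genes, against -0.671 to 0.464 for different numbers, the highest being control 2 with shPBRM1 3), so the number was also fitted as a block.

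Positions, exonic lengths, overlaps and neighbors are from GENCODE v29 (98.15% of symbols matched), and promoter windows from RefSeq (GRCh38.p14), 1 per gene at its most upstream start. The members and lists were chosen with earlier results of these data known. By the rule for named genes, values per library are given for the 3 highest and 3 lowest members of each role, and the 3 highest and 3 lowest partners and the tested neighbors are named. Alternatives were DESeq2 1.42.0, RLE factors, library size only, no filter, a minimum mean of 50 counts, the replicate number as a block, leaving out single libraries, and an adjusted p under 0.001. Results for some genes of the partner list are not reported here singly. The count without the 9 members that share exons was added after seeing the data.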

Additional observations from a re-analysis of the deposited data

How the results depend on the processing

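Across 12 alternative fits, 21 to 25 members were higher and 6 to 9 were lower, and the median log2 fold change kept its sign. In the main fit, 4863 of all 15450 genes tested were higher (31.5%) and 5137 were lower (33.2%). With library size only these counts over all genes were 4348 and 5679. At an adjusted p under 0.001, 4 members were lower in place of 8, and the share over all genes at that threshold is not given. The number of members higher by over 2-fold was 0 on library size only and ranged from 0 to 1 with each library left out, since DNA2 fell below the threshold without control_shRNA replicate 1 or shPBRM1 replicate 1. With library size only, which moves the median of all genes to -0.06, 2 proliferation genes were lower in place of 1, and 22 partners were lower in place of 15. Leaving out each library in turn gave 22 to 24 higher and 6 to 8 lower members. Over all genes tested, these fits gave 4598 to 4758 higher and 4815 to 5028 lower. With each library left out in turn, 3 members that passed in none of the fits changed sign: their log2 fold changes ran from -0.1957 to 0.004024 for RAD52 and from -0.04473 to 0.007207 for ATM (above 0 without shPBRM1 replicate 2), and from -0.0584 to 0.005729 for TP53BP1 (above 0 without shPBRM1 replicate 3). With the replicate block 25 members were higher and 8 lower, and of all 15450 genes 4973 were higher and 5226 lower. The block added LIG4 and XRCC4 and changed no other call among the members. DESeq2 gave 23 and 7 members, and 4544 higher and 4773 lower of 20026 genes. For the calls near the threshold that moved, the cause was not tested. The largest standard error, 0.13 on the log2 scale, was that of RAD52, the member with the fewest counts.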

Other observations

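The 3 subunits of RPA, which coats single-stranded DNA, were all higher among the partners, with log2 fold changes of 0.60 for RPA1, 0.10 for RPA2 and 0.63 for RPA3 (edgeR adjusted p = 2.61e-12, 0.041 and 3.49e-09). RPA2 did not pass with DESeq2 (adjusted p = 0.0785). Of all genes tested, 31.5% were higher and 33.2% were lower. The shieldin subunits differed in direction, at -0.60 for SHLD1, 0.25 for SHLD2 and -0.53 for SHLD3 (edgeR adjusted p = 0.000376, 5.76e-05 and 0.00325). Of the structure-selective nucleases that cut recombination intermediates, GEN1 and EME1 were higher, at 0.77 and 0.75, and MUS81, the catalytic partner of EME1, was lower, at -0.26 (edgeR adjusted p = 4.54e-09, 7.17e-06 and 0.000854). TOP3A and RMI1, which act with BLM, were lower, at -0.47 and -0.25, while RMI2 was higher, at 0.24 (edgeR adjusted p = 2.09e-10, 1.89e-06 and 0.00298). These partners were chosen after their values were seen.

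Some members have a neighbor on the opposite strand whose start lies inside them within 1000 bp, also looked at after the values were seen. HSCB, beside CHEK2, was at 8.49, 9.38 and 8.94 CPM in controls and at 4.50, 4.81 and 4.94 CPM in shPBRM1 libraries (log2 fold change -0.91, edgeR adjusted p = 1.4e-08), while CHEK2 was higher. TMEM167A, beside XRCC4, was higher (0.21, edgeR adjusted p = 2.66e-05). NPAT, beside ATM, and ANKRD49, beside MRE11, did not pass (-0.03 and 0.10, adjusted p = 0.622 and 0.38).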
